A study of Rattus norvegicus with 12 samples.

Results

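Zebularine was compared with vehicle in the preoptic area of newborn male rats, in 3 zebularine and 3 vehicle libraries out of the 12 in the series. The 6 libraries were chosen by their sample titles and by the code in the file names, without any measured value. Animals of both groups were dosed on postnatal days 0 and 1 and their preoptic tissue was taken on postnatal day 2. Controls received saline containing 0.1% of what the labels call DNMSO, a solvent. The 6 other libraries hold females given the same treatments, again 3 per treatment. The sources used here do not give strain, dose, route or how many animals went into a library. The p-values thus reflect the variation among these particular libraries, and that variation may be technical.

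Zebularine is a cytidine analogue that is taken up into nucleic acids and inhibits DNA methyltransferases, the enzymes that place and copy methyl groups on cytosine. Methylated promoters of low or silent genes are a known target of such inhibitors, and loss of methylation there is known to raise transcription. The preoptic area is a forebrain region that controls reproductive behaviour, and in rodents it takes on its male or female form around birth under the control of gonadal hormones. The comparison asked which genes changed in males given such an inhibitor during that period. Whether methylation fell in these animals is not shown by the RNA levels used here.

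The authors' tables give RPKM (reads divided by gene model length in kilobases and by library size) for 29516 Ensembl rat gene identifiers, and do not pair them with symbols. None of the identifiers matched the gene name table used here, so genes are described by identifier, level, gene model length and response, and markers of cell types, brain regions and sex chromosomes could not be checked. The sexes stood apart at ENSRNOG00000037911, a gene already known from these data to differ by sex. It had between 0 and 5 reads in the male libraries and between 42.4 and 59.7 RPKM in the female libraries. The male libraries held from 15851598 to 30474857 reads in genes, the shallowest and the deepest both under zebularine (replicates 2 and 1), with means of 26894431 ± 3531498 in vehicle and 22454786 ± 7413878 in zebularine males (SD, n = 3, two-sided exact permutation p = 0.50, adjusted over 4 library measures 0.667, where 0.10 is the smallest p that 3 against 3 allows). At the median gene model length of 1595 bases, 3 reads correspond to between 0.0617 and 0.119 RPKM, for counting error only. Libraries of one group correlated at between 0.978 and 0.989 on the log2 scale and libraries of opposite groups at between 0.979 and 0.989, nearly the same range. In bulk tissue, fewer cells of a type and less RNA per cell cannot be told apart.

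In males, 4 genes rose under zebularine and none fell, out of 15671 genes tested. The 4 genes rose between 1.87-fold and 15.2-fold in mean RPKM. In each of them every zebularine library stood above every vehicle library, as in 8.46% of all tested genes. A call on 3 against 3 libraries itself favours such a lack of overlap, so it adds no support. The 4 genes made up 0.0255% of the genes tested. Genes were tested with limma on log2(RPKM + 0.5), with Benjamini-Hochberg adjustment and a threshold of 0.05, if they reached 0.5 RPKM in at least 3 of the 6 libraries. Changes on this scale understate the change of low genes.

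ENSRNOG00000002217, a gene model of 730 bases, had the largest change of the 4. It stood at 0.357, 0.197 and 0.183 RPKM in vehicle males, on between 4 and 6 reads per library, and at 3.69, 3.72 and 3.78 RPKM in zebularine males, on between 43 and 82 reads. The treated libraries lay close together, and the lowest of them was far above the highest vehicle library. The change was 2.51 ± 0.14 in log2 units (SE, limma adjusted p = 0.00740), and the means were 0.246 ± 0.0966 and 3.73 ± 0.0462 RPKM (SD, n = 3).

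ENSRNOG00000015411, a gene model of 1272 bases, had 0.376, 0.255 and 0.315 RPKM in vehicle males and 2.92, 2.23 and 2.35 RPKM in zebularine males. The groups did not overlap, and zebularine male replicate 1 was the highest library. The mean rose 7.93-fold, with a change of 1.88 ± 0.15 in log2 units (SE, limma adjusted p = 0.0250). This gene and ENSRNOG00000002217 reached 0.5 RPKM in the zebularine libraries alone, so both entered the test through the group in which they were high. With no filter on low values ENSRNOG00000002217 (limma adjusted p = 0.0215) and ENSRNOG00000015411 (0.0438) passed, while ENSRNOG00000024382, described next, did not (0.0834), which left 3 genes called. ENSRNOG00000015411 did not pass with quantile normalization (limma adjusted p = 0.0811).

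The other 2 genes were above the minimum in all 6 libraries, and are named because so few genes passed. ENSRNOG00000024382, of 1199 bases, stood at 1.16, 1.14 and 1.03 RPKM in vehicle and at 3.86, 3.79 and 3.29 RPKM in zebularine males. Its mean rose 3.28-fold, with a change of 1.36 ± 0.11 in log2 units (SE, limma adjusted p = 0.0250). ENSRNOG00000021157, of 996 bases, was the most abundant of the 4, at 11.3, 12 and 11.9 RPKM in vehicle and 23, 22.3 and 20.7 RPKM in zebularine males, with between 260 and 697 reads per library. Its mean rose 1.87-fold, and its change of 0.88 ± 0.06 in log2 units (SE, limma adjusted p = 0.0232) rested on the tightest spread of the 4.

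With single libraries left out, the size of these changes was steadier than their call. The 4 genes were called on these same libraries, which favours a small spread and so partly fixes a steady size. When each male library was left out in turn, the log2 change lay between 2.45 and 2.61 for ENSRNOG00000002217, 1.78 and 1.94 for ENSRNOG00000015411, 0.85 and 0.92 for ENSRNOG00000021157, and 1.32 and 1.43 for ENSRNOG00000024382. The number of genes that passed was nevertheless 1 without vehicle male replicate 1, and 0 without vehicle male replicate 2, vehicle male replicate 3 or any one of zebularine male replicates 1, 2 and 3. With the spread estimated over all 12 libraries no gene passed, and the adjusted p of the 4 genes lay between 0.0505 and 0.0968 by limma. Limma-voom on the whole reads recovered from the RPKM values called 23 genes, all higher, the 4 among them. The size moved more over all alternatives, which include other pseudocounts and limma-voom. The log2 change then ran from 1.93 to 3.87 for ENSRNOG00000002217 and from 1.41 to 2.99 for ENSRNOG00000015411. It ran from 0.84 to 0.92 for ENSRNOG00000021157 and from 1.14 to 1.71 for ENSRNOG00000024382.

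**Figure D1:**
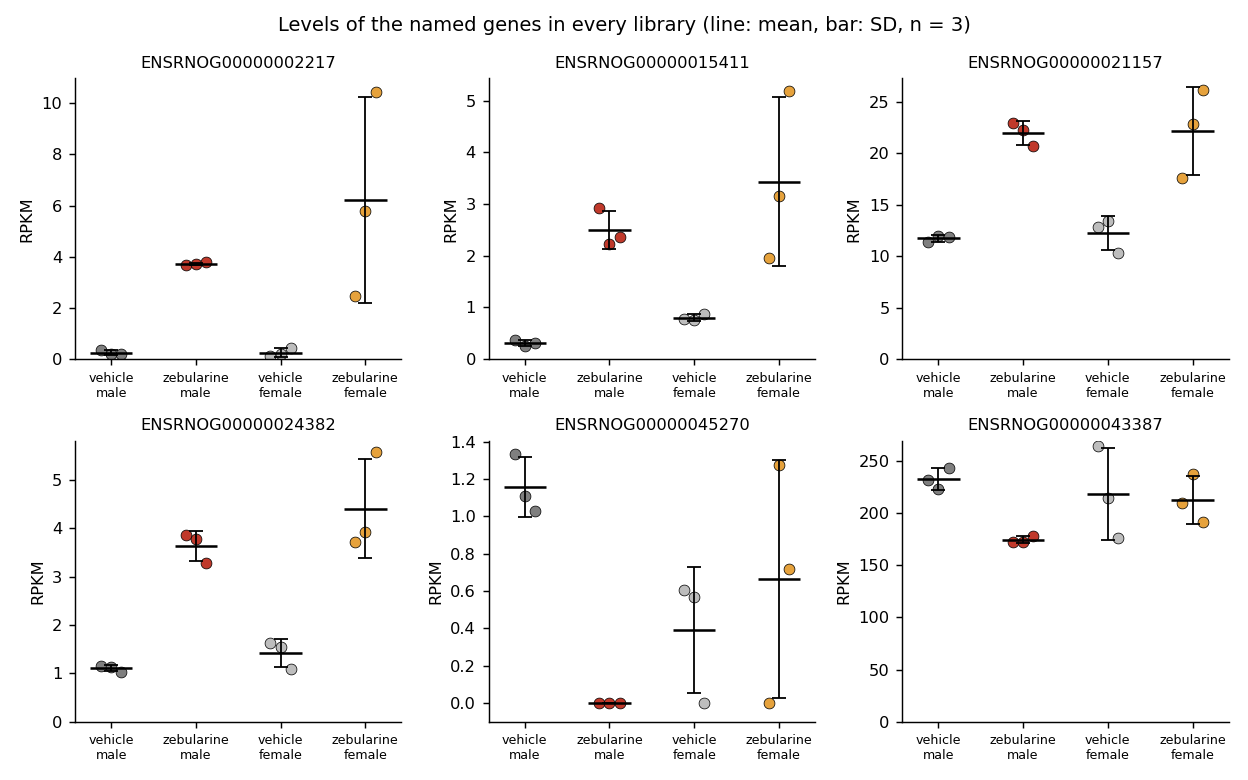
Levels in RPKM (vertical axis, from 0 except in the panel of ENSRNOG00000045270, which starts just below 0) of 6 genes in the 12 libraries by group (horizontal axis), each point a library, with the mean as a line and the SD as a bar (n = 3). In the first 4 panels the zebularine males lie above the vehicle males without overlap, as do the zebularine females above the vehicle females; the last 2 panels are the lower genes with the smallest p in males, neither of which passed.

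No gene fell past the threshold by limma, and none by limma-voom, while 484 genes were lower at an unadjusted p under 0.05 by limma and 477 by limma-voom. The smallest p among lower genes belonged to ENSRNOG00000045270, a gene model of 65 bases (limma adjusted p = 0.0592). It had 2 reads in each vehicle male library and 0 in each zebularine male library, below what 3 reads would allow to be told from 0, so no fold is given. It was tested only because the vehicle libraries reached the minimum. The females held between 0 and 2 reads of it, in both treatments.

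ENSRNOG00000043387, a gene model of 397 bases, was the lower gene with the next smallest p, and it was abundant. It stood at 232, 223 and 244 RPKM in vehicle males and at 172, 173 and 178 RPKM in zebularine males, on between 1087 and 2896 reads. The groups did not overlap, and the zebularine mean lay 25.1% below the vehicle mean. The log2 change of -0.41 ± 0.06 did not pass (SE, limma adjusted p = 0.141). In females the same gene gave -0.02 ± 0.12 (SE), and the male minus female difference of -0.39 had a 95% interval from -0.77 to -0.01 without adjustment (limma adjusted p = 0.979).

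On the log2(RPKM + 0.5) scale, most tested genes were measured closely enough to bound their change. This scale shrinks both the change and the interval of low genes, so for them the bounds do not hold for RPKM itself. The median log2 change over the 15671 genes was 0.00 and its median size 0.10. For 14545 genes, or 92.8%, the unadjusted 95% interval lay within 2-fold either way, and for 79.8% it lay within 1.5-fold. The median half-width of the interval was 1.19-fold. Changes of at least 2-fold on the log2(RPKM + 0.5) scale were found in 34 genes that were higher and 24 that were lower. Of these, 28 and 12 did not overlap between the groups. Over all tested genes, 8.46% were higher and 6.06% lower without overlap. Choosing genes by a large change in the same libraries itself favours a lack of overlap.

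At the strictest unadjusted limit used, higher genes outnumbered lower ones. At an unadjusted p under 0.001 by limma, 44 genes were higher and 4 lower. A share of 0.001 of the tested genes would be 15.7 genes, both directions together. On the log2(RPKM + 0.5) scale the changes of the 44 genes ran from 1.32-fold to 5.70-fold with a median of 1.84-fold, and 16 genes reached 2-fold. Their median level in vehicle males, 1.62 RPKM, lay below the 8.72 RPKM of the tested genes as a whole; 14 lay under 1 RPKM and 6 at 10 RPKM or more. Zebularine male replicate 1 was the highest treated library for 25 of the 44, replicate 2 for 12 and replicate 3 for 7; over all tested genes replicate 1 was the highest in 39.0%. The 4 lower genes had short gene models, from 65 to 556 bases. Leaving out vehicle male replicate 1, 2 or 3 turned the count of 44 into 22, 28 or 24, and leaving out zebularine male replicate 1, 2 or 3 turned it into 33, 24 or 30. It was 29 with the spread taken over 12 libraries. The count of 4 was 2 without vehicle male replicate 1, 7 without zebularine male replicate 2, and 12 without vehicle male replicate 2 or zebularine male replicate 1. With no filter on low values there were 46 higher and 15 lower genes, and with array weights 63 and 11, so the imbalance was smaller in both.

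**Figure D2:**
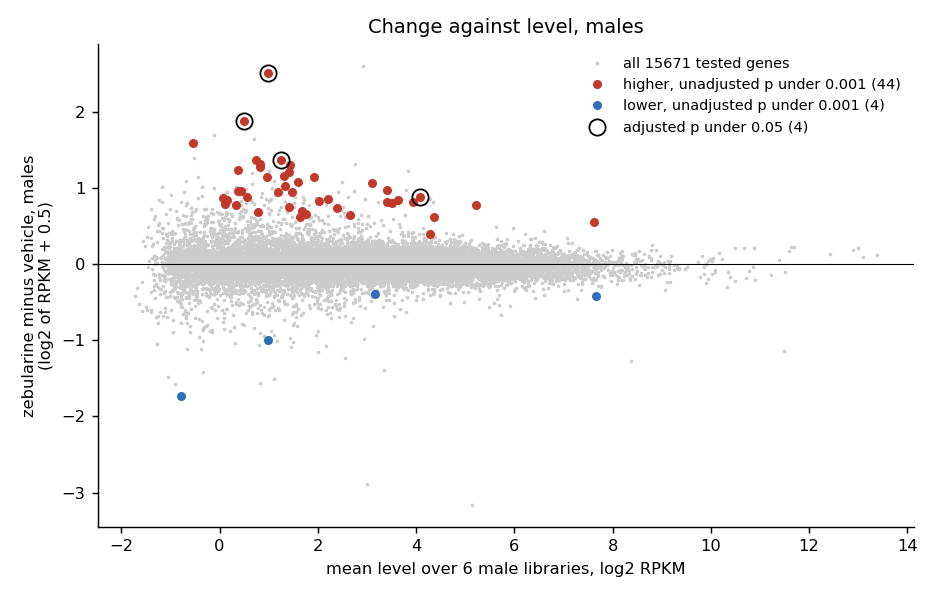
Zebularine minus vehicle in males (vertical axis, log2 of RPKM + 0.5) against the mean level over the 6 male libraries (horizontal axis, log2 RPKM) for all 15671 genes tested. Red points are the 44 higher and blue points the 4 lower genes at an unadjusted limma p under 0.001. Circles mark the 4 genes that passed after adjustment. The red points lie mostly at low and middle levels, and the highest of these genes stood at 158 RPKM in vehicle males.

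At the looser limit the directions were closer to balance. At an unadjusted p under 0.05 by limma, 631 genes were higher and 484 lower, 4.03% and 3.09% of those tested and 7.12% together. Median-ratio scaling turned the balance, with 533 higher and 553 lower, although it moved the median log2 change only to -0.01. Without zebularine male replicate 1 the numbers were 827 and 912, without vehicle male replicate 1 they were 362 and 310, without vehicle male replicate 3 they were 322 and 209, and without zebularine male replicate 2 they were 426 and 303.

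The direction depended on the level of the gene. With the tested genes ranked by their mean over the 6 libraries and divided into 4 equal classes, 181 were higher and 59 lower in the lowest class, from 0.303 to 2.87 RPKM. In the next class 139 were higher and 86 lower, and in the third class 177 and 136. In the highest class, above 22.5 RPKM, 134 were higher and 203 lower. The upward share thus went from 75.4% at the lowest levels to 39.8% at the highest. The lowest class also holds the genes that reached 0.5 RPKM in 1 group alone, 30 through the zebularine and 13 through the vehicle libraries. Without these 43 genes, an alternative chosen after seeing the data, it had 157 higher and 49 lower genes, an upward share of 76.2%. The shares of the lowest and highest class were 73.1% and 31.2% with median-ratio scaling and 69.6% and 47.2% with quantile normalization. Leaving out single male libraries brought these classes closest together without zebularine male replicate 2, at 68.6% and 50.0%, and next without zebularine male replicate 1, at 62.4% and 43.1%. The share in the lowest class was above that in the highest under both scalings and without each male library.

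**Figure D3:**
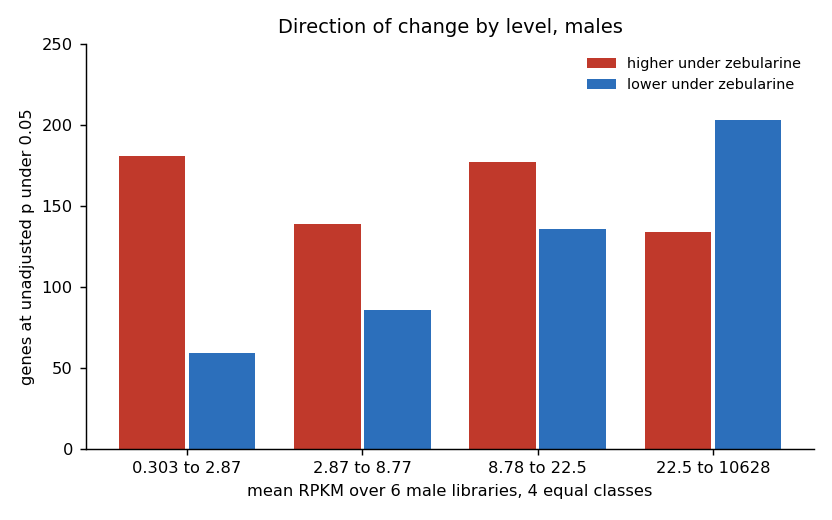
Number of genes at an unadjusted limma p under 0.05 in males (vertical axis) that were higher (red) or lower (blue) under zebularine, in 4 equal classes by mean RPKM over the 6 male libraries (horizontal axis). Higher genes outnumber lower ones 181 to 59 in the lowest class, and lower genes outnumber higher ones 203 to 134 in the highest.

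The female libraries, which took no part in choosing these genes and share no library with the males, gave a second reading of them. Of the 44 genes that were higher in males at an unadjusted p under 0.001, 43 had a positive zebularine change in females, where 51.5% of all tested genes did. In 41 of the 44, or 93.2%, every zebularine female library lay above every vehicle female library, which held for 5.6% of all tested genes. Leaving aside the 3 genes that entered the test through the zebularine male libraries alone, this held for 39 of the other 41. At an unadjusted limma p under 0.05 in females, 41 of the 44 were higher, against 3.76% of all tested genes. The median change of the 44 genes was 0.95 on the log2 scale in females and 0.88 in males, on which they were chosen. Of the 23 genes called by limma-voom in males, 22 were among the 44, and all 23 were higher in the zebularine than in the vehicle females without overlap. Of the 4 lower genes, 3 had a negative change in females and 1 was lower there without overlap, as were 3.36% of all tested genes. That gene, ENSRNOG00000035851, named after its values were seen, was also the 1 gene of the 4 that was lower in females at an unadjusted limma p under 0.05, as were 1.31% of all tested genes.

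The 4 called genes followed this pattern. In females ENSRNOG00000002217 stood at 0.108, 0.202 and 0.445 RPKM under vehicle and at 2.45, 5.78 and 10.4 RPKM under zebularine. ENSRNOG00000015411 went from 0.773, 0.754 and 0.875 RPKM to 1.96, 3.16 and 5.19 RPKM. Zebularine female replicate 3 was the highest library for both. ENSRNOG00000024382 stood at 1.64, 1.54 and 1.08 RPKM and at 3.72, 3.94 and 5.58 RPKM, and ENSRNOG00000021157 at 12.9, 13.4 and 10.3 RPKM and at 17.6, 22.8 and 26.1 RPKM. The treated females were thus more widely spread than the treated males in each of the 4 genes. The 4 genes were called on the male libraries, which favours genes of small male spread and partly fixes this. It is therefore not read as a difference between the sexes.

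Library by library, the 44 genes stood at a median of 1.00, 0.96 and 0.80 on the log2 scale above the vehicle mean in zebularine males 1, 2 and 3. In zebularine females 1, 2 and 3 the median was 0.61, 0.87 and 1.39 above the vehicle female mean. In each treated female library at least 42 of the 44 genes lay above that mean. The medians in the vehicle libraries lay between -0.04 and 0.04 in males and between -0.14 and 0.14 in females. The median over all tested genes stayed between -0.02 and 0.02 in all 12 libraries.

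**Figure D4:**
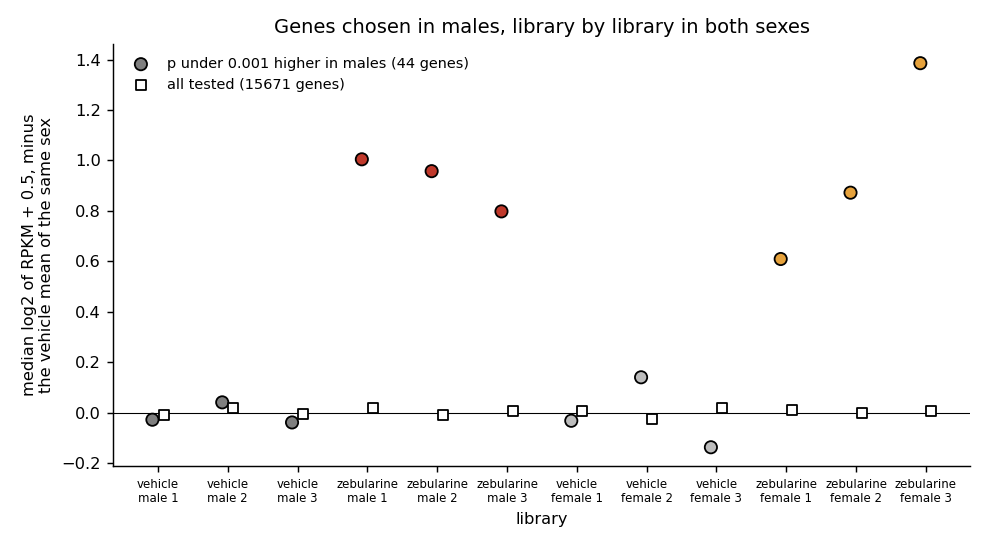
Median log2 of RPKM + 0.5 minus the vehicle mean of the same sex (vertical axis) in each of the 12 libraries (horizontal axis), for the 44 genes higher in males at an unadjusted p under 0.001 (circles, coloured by group) and for all 15671 tested genes (squares). The circles lie from 0.80 to 1.00 in treated males and from 0.61 to 1.39 in treated females, and the squares stay near 0.

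Over all tested genes, 1326 were higher in every zebularine male library than in any vehicle male library and 949 were lower, 8.46% and 6.06% of those tested. In females 877 were higher and 527 lower in this way, 5.6% and 3.36% of those tested. In both sexes 219 genes were higher, which is 16.5% of the male and 25% of the female list. These shares lie above the 5.6% and 8.46% of all tested genes. In both sexes 34 genes were lower, which is 3.58% of the male and 6.45% of the female list. These shares lie near the 3.36% and 6.06% of all tested genes, so the 34 are not read as a shared fall. Opposite movement without overlap was seen in 22 genes that were higher in males and lower in females and in 30 that were lower in males and higher in females.

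Whether the male response differed from the female one was tested gene by gene over all 12 libraries. None passed, with limma (smallest adjusted p = 0.476) or with limma-voom, and 617 genes, 3.94% of those tested, had an unadjusted limma p under 0.05. The 95% interval of this difference had a median half-width of 1.27-fold. Among the 4 called genes the male minus female difference had a 95% interval from -1.63 to 0.67 for ENSRNOG00000002217, from -0.40 to 1.12 for ENSRNOG00000015411, from -0.35 to 0.45 for ENSRNOG00000021157 and from -0.48 to 0.51 for ENSRNOG00000024382, on the log2 scale and without adjustment. The intervals of ENSRNOG00000002217 and ENSRNOG00000015411 include differences of over 2-fold. Of the 44 genes, 17 changed more in males than in females, and 2 had a difference with an unadjusted p under 0.05.

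**Figure D5:**
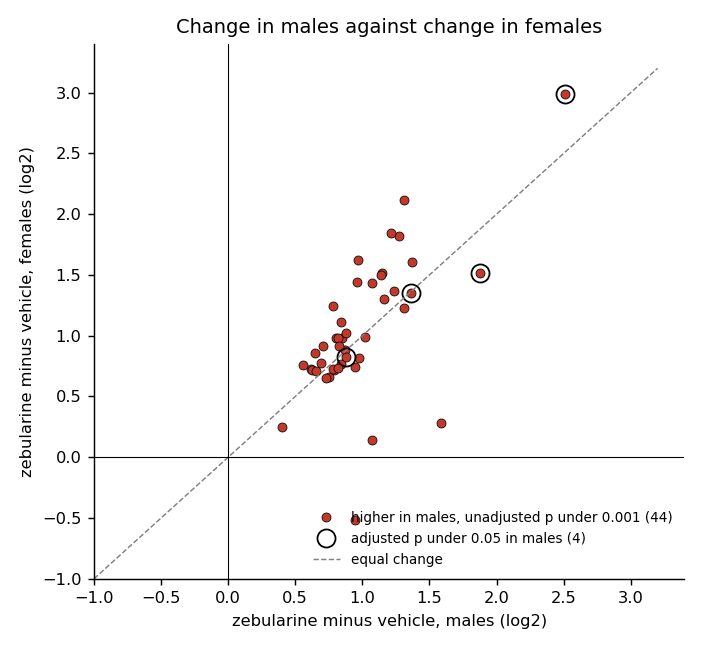
Zebularine minus vehicle in females (vertical axis) against that in males (horizontal axis), both as log2 of RPKM + 0.5, for the 44 genes higher in males at an unadjusted p under 0.001; circles mark the 4 called genes and the dashed line equal change. All but 1 of the points lie above 0 on the female axis, and 17 lie below the dashed line.

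ENSRNOG00000006010 and ENSRNOG00000015550 had the smallest p of a difference toward females, and neither difference passed. In males ENSRNOG00000006010, a gene model of 1950 bases, stood at 1.60, 1.33 and 1.08 RPKM under vehicle and at 1.45, 1.13 and 1.27 RPKM under zebularine. The male groups overlapped, with a log2 change of -0.04 ± 0.16 (SE) and an unadjusted 95% interval from -0.41 to 0.33, whereas its zebularine females reached 5.18, 7.24 and 8.57 RPKM. The difference of -2.00 ± 0.29 (SE) had a limma adjusted p of 0.476. ENSRNOG00000015550, of 759 bases, stood at 2.40, 1.38 and 0.749 RPKM in vehicle and at 6.10, 1.75 and 1.32 RPKM in zebularine males. Only zebularine male replicate 1 exceeded the vehicle males, and the change of 0.66 ± 0.52 did not pass (SE, limma adjusted p = 0.749). Its females stood at 1.86, 4.86 and 14.2 RPKM under vehicle and at 156, 177 and 543 RPKM under zebularine. The male minus female difference was -4.78 ± 1.00 (SE, limma adjusted p = 0.979).

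Toward males, the smallest p belonged to ENSRNOG00000035751 and ENSRNOG00000034884, short gene models of 66 and 89 bases. ENSRNOG00000035751 stood at 30.3, 26.2 and 22.8 RPKM in vehicle males and at 39.3, 34.4 and 30.2 RPKM in zebularine males, and the groups overlapped by a narrow margin. Its male log2 change was 0.39 ± 0.13 (SE, limma adjusted p = 0.681). In females its mean went from 33.8 RPKM under vehicle to 22.7 RPKM under zebularine, a log2 change of -0.56 ± 0.11 (SE). ENSRNOG00000034884 stood at 2.93, 3.24 and 1.88 RPKM in vehicle and at 3.69, 4.96 and 4.27 RPKM in zebularine males, on between 5 and 10 reads per library. Neither difference between the sexes passed, with a limma adjusted p of 0.516 for the first and 0.979 for the second.

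The largest change in each direction on the log2(RPKM + 0.5) scale belonged to a gene that did not pass. Both genes are given because of their size, after their values were seen. ENSRNOG00000016275, of 616 bases, stood at 1.27, 4.33 and 0.705 RPKM in vehicle and at 17.9, 11.9 and 9.65 RPKM in zebularine males. Its zebularine mean was 6.25 times its vehicle mean in RPKM, a smaller ratio than the 15.2 of ENSRNOG00000002217. The groups did not overlap, but the vehicle libraries spread widely and the log2 change of 2.60 ± 0.50 did not pass (SE, limma adjusted p = 0.351). Among vehicle females the same gene ran from 0.678 to 24.7 RPKM, a range that covers every male library. ENSRNOG00000036083, a gene model of 153 bases, had the most negative change, from 48.8, 3.53 and 149 RPKM in vehicle to 6.43, 0.825 and 4.04 RPKM in zebularine males. Its groups overlapped, its log2 change of -3.16 ± 1.30 did not pass (SE, limma adjusted p = 0.681), and the change was -2.02 without vehicle male replicate 3.

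Short gene models were frequent among the large changes. Of the 24 genes that were lower by at least 2-fold, 22 had a gene model under 200 bases, and of the 34 that were higher, 14 did, where 5.73% of all tested genes did. On average under 10 reads per library lay behind 16 of the 24 and 11 of the 34. The 898 tested gene models under 200 bases took 0.149%, 0.144% and 0.180% of the reads in vehicle males and 0.137%, 0.137% and 0.130% in zebularine males (two-sided exact permutation p = 0.10, the smallest possible). The vehicle libraries were all higher in this pooled share, vehicle male replicate 3 most of all. The share includes the short gene models with large changes counted above, so it is no separate reading of them. It was not among the 4 library measures that were adjusted together. A median log2 deviation from the gene's own mean was also taken over the 175 of the 898 with a mean of at least 10 RPKM. It was 0.04, 0.05 and -0.09 in vehicle males and 0.07, 0.04 and -0.10 in zebularine males, so the groups overlapped. These medians do not cover the short gene models below 10 RPKM. Whether the recovery of short transcripts in library preparation plays a part in the large changes was not tested.

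No gene went from silence to a clear level. None was under 0.1 RPKM in all 3 vehicle males and at 0.5 RPKM or more in all 3 zebularine males. In the opposite direction 3 genes did so, none with 10 reads in each vehicle library. Over all 29516 listed genes, 18 had no read in the vehicle males and at least 1 in each zebularine male, with at most 7 reads summed over the 3 libraries. Another 44 genes had no read in the zebularine males and at least 1 in each vehicle male, with at most 22 reads summed, beside the lower average depth of the zebularine males. At this depth such genes could not be told from genes that stayed near 0.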

How the data were processed

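The authors deposited 1 table per library with RPKM for 29516 Ensembl identifiers. The submitters' processing notes name TopHat and no version. The sources used here give no counter, genome build, annotation or strand setting. Genes that overlap, lie antisense or are near-identical may share reads. The low values are whole multiples of 1 read (all 23427 genes above 0, within 1e-05 of a read; trivially so for 1386 genes seen in 1 library), which gave reads and gene model lengths.

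The 15671 genes at 0.5 RPKM or more in at least 3 male libraries were fitted as log2(RPKM + 0.5) with limma 3.58.1 in R 4.3.3 (eBayes with trend) on the 6 male libraries. Of these, 361 reached the minimum in exactly 3 libraries (median mean 0.521 RPKM), and 452 genes in exactly 2 were left out (0.423 RPKM). The difference between the sexes was fitted on the same genes over all 12 libraries. The fit was also run on simulated reads, with the same spread for all genes and changes given only to genes with enough reads. That simulation does not cover low genes or spreads that differ between genes, and nothing here rests on it. Alternatives covered scaling, pseudocount, filter, limma options, limma-voom on recovered reads, blocks, threshold and leaving out each library. Figures used Python 3.11.15 and matplotlib 3.10.9. Libraries of a group differed beyond sampling noise (chi-square over degrees of freedom, 6.17 to 17.8).

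Named genes were those that passed, the 2 lower genes with the smallest p, and the 2 per direction with the smallest p of the difference, all with a group mean of 1 RPKM or more. Genes outside this rule are named as such where they appear. The 25 gene lists by symbol were not analysed here, because no identifier matched a symbol. The comparison, limits and lists were chosen with earlier results of these data known.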

Additional observations from a re-analysis of the deposited data

Results flagged for a closer look

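ENSRNOG00000034884 moved in opposite directions in the sexes: its treated males lay above the vehicle males and its treated females below the vehicle females, without overlap in either. The male minus female difference of the zebularine effect was 1.68 ± 0.31 on the log2 scale (SE), with a limma adjusted p of 0.979, so the test of the difference did not pass. With all libraries thinned to equal depth the difference was 0.70. Only 3 to 12 reads stood behind each library's value, and the gene had been named for the small p of this difference, which partly fixes the opposite movement.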

How the results depend on the processing

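The 4 higher genes were 0 with the replicate block on the numbers in the titles, 0 with a block on the number in the file names, 0 with the spread taken over all 12 libraries, 23 with limma-voom on recovered reads and 9 at an adjusted p threshold of 0.10; leaving out 1 library gave from 0 to 1. The main fit had no block, because the labels do not say that either number pairs libraries. Deviations of same-numbered libraries correlated at 0.18, 0.14 and -0.06, and those sharing a file number at -0.31 and -0.06. With 3 libraries per group these correlations do not settle whether either number pairs libraries. Both blocks leave few degrees of freedom. At an unadjusted limma p under 0.001, the 44 higher and 4 lower genes were 27 and 6 with the replicate block. With the file number block they were 2 and 0. At an unadjusted limma p under 0.05, the 631 higher and 484 lower genes were 792 and 747 with the replicate block. With the file number block they were 238 and 183. Of the 21 alternatives 10 kept the count of 4 higher genes within 1.5 times. The count of 0 lower genes was 1 with no filter on low values, with robust limma, with array weights and at 0.10. The difference between the sexes gave 0 genes in all 25 alternatives. The male change of the 4 higher genes and of the lower genes named by the rule kept its direction under every alternative run. So did the male minus female difference of the genes named for that difference. The male change of these last genes was not followed through the alternatives, and genes named outside the rule were not followed through all of them. All genes that were followed had been chosen for a small p in the same libraries. That choice largely fixes a kept direction, which is therefore no separate support for them. The trend with gene model length was added after seeing the data. Depth limits genes under about 10 reads per library.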
